A study of Caenorhabditis elegans with 3 samples.

Results

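The peaks described here are the LET-418 binding sites in the broad domains of chromosome IV that carry the 21U-RNA loci of Caenorhabditis elegans. They were taken by position only. A peak of the authors' combined list is a member when its midpoint lies between positions 4500000 and 7000000 of IV (the left domain, 2.5 Mb) or between 13500000 and 17200000 (the right domain, 3.7 Mb), on WormBase build WS220. Of the 9187 combined peaks, 1341 were on IV and 323 were members, 164 in the left and 159 in the right domain. The other 1018 peaks of IV are the main comparison. They fall into 497 before the left domain, 508 between the domains and 13 in the 0.271 Mb from the end of the right domain to the last peak of the chromosome.

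21U-RNAs are the piRNAs of the worm, short germline RNAs bound by the Argonaute protein PRG-1 that silence foreign and transposon-like transcripts. Most come from small separate transcription units, many with a shared upstream motif, that lie between and within the introns of ordinary genes. LET-418 is a Mi-2 homologue, the ATPase of nucleosome-remodelling complexes such as NuRD and MEC, and is known for keeping germline genes silent in somatic cells and for its part in vulval development. In the RefSeq annotation of assembly WBcel235, 14714 of 15363 genes of the biotype piRNA (95.8%) are on IV. That assembly is not the build of the peaks, so its gene positions were not set against them, and the domain limits rest on the rule above. Peak sequences and overlaps with single genes were not analysed here for the same reason.

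The chromatin came from wild-type N2 worms of both sexes, collected as L3 larvae after liquid culture at 20 °C, crosslinked with EGS and formaldehyde, and precipitated with polyclonal rabbit antibodies that had been affinity-purified against LET-418. The labels list 2 ChIP libraries and 1 input library, and nothing says whether the ChIP libraries came from separate cultures. Differences between them may thus be technical. Whole larvae were used, so the cells in which a site was bound are not known from these lists. There is 1 list for each ChIP replicate and 1 combined list. The replicate 1 list held 16140 peaks and the replicate 2 list 9817, with no read counts, so the sequencing depth behind them is unknown. Stretches of chromosome can be compared within each replicate list, but over 2 replicates a two-sided exact test cannot go below p = 0.5, so none was run. The main values of the combined list are set beside those of each replicate list instead. Wilson intervals at 95% cover counting error only, and neighbouring peaks are not independent.

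LET-418 peaks were sparser in the domains than elsewhere on IV, and this held in every list. The domains make up 35.5% of the length of IV up to its last peak but held 24.1% of its combined peaks, 22.9% of its replicate 1 peaks and 23.2% of its replicate 2 peaks. Density over both domains was 52.1 combined peaks per Mb, against 90.3 per Mb over the rest of IV, a ratio of 0.577. The ratio was 0.541 in replicate 1 (86.8 against 160.4 per Mb) and 0.548 in replicate 2 (54.2 against 98.9 per Mb). Over all chromosomes the combined list held 91.7 peaks per Mb, close to the rest of IV. In covered bases, combined peaks took up 1.61% of the domains and 2.73% of the rest of IV.

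Part of that contrast came from the dense stretch before the left domain. It held 110.4 combined peaks per Mb, 208 in replicate 1 and 112.7 in replicate 2. The stretch between the domains, which is the middle of the chromosome, held 78.2 per Mb in the combined list, 130.5 in replicate 1 and 90.9 in replicate 2. Against this middle stretch alone, the ratio of both domains was 0.667 in the combined list, 0.665 in replicate 1 and 0.596 in replicate 2. The short tip after the right domain was also sparse, with 48.0 combined peaks per Mb, 88.6 in replicate 1 and 62.8 in replicate 2, all of them above the right domain in the same list. With only this tip left beyond it, the right domain cannot be told apart from a position near the end of the chromosome.

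The left domain was denser than the right one. It held 65.6 combined peaks per Mb, with 106 in replicate 1 and 71.6 in replicate 2. The right domain held 43.0 combined peaks per Mb, with 73.8 in replicate 1 and 42.4 in replicate 2. The ratio of left to right was 1.53 in the combined list, 1.44 in replicate 1 and 1.69 in replicate 2. The size of this ratio depended on the richest bins of 500 kb, which were chosen after their values were seen. On the left, the bin from 5500000 to 6000000 held 68 of the 164 members (41.5%). Without the richest bin of each domain, the left domain had 48.0 combined peaks per Mb and the right 37.5, a ratio of 1.28 (1.19 in replicate 1 and 1.29 in replicate 2). With the bin left out on the left side only, which must lower the ratio, it was 1.12.

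**Figure D1:**
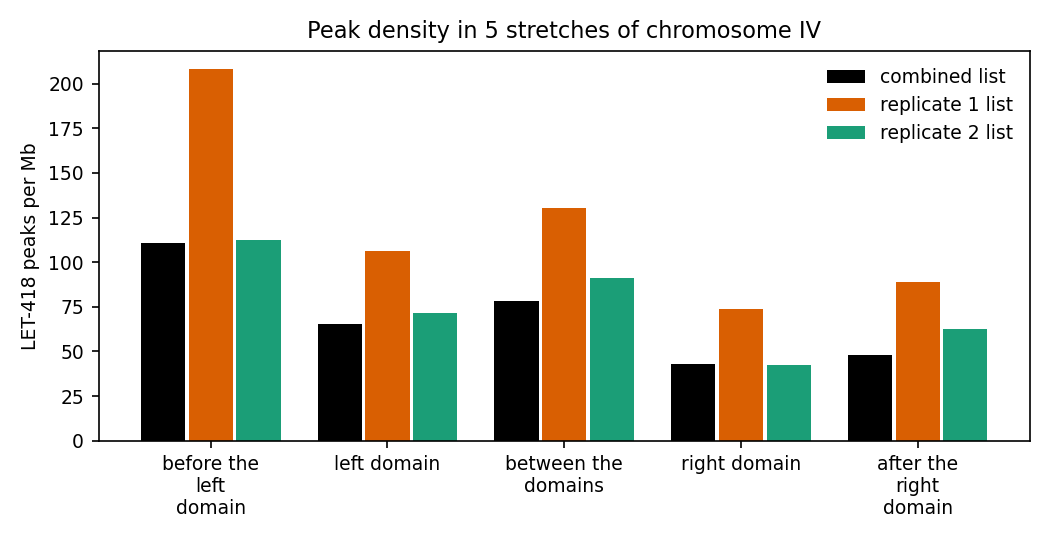
Bars give LET-418 peaks per Mb (vertical axis, from 0) in 5 successive stretches of chromosome IV, for the combined, replicate 1 and replicate 2 lists. In each list the right domain has the lowest bar, and the left domain lies below both the stretch before it and the stretch between the domains.

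The sparseness was a mosaic of poor stretches and a few rich ones. In bins of 500 kb, the left domain held, from its start, 39, 16, 68, 18 and 23 combined peaks. The replicate 1 list had 61, 32, 103, 28 and 41 in the same bins, and replicate 2 held 34, 23, 78, 19 and 25. The third bin was the richest in every list. The right domain held 16, 17, 39, 17, 16, 36 and 15 combined peaks in its 7 full bins and 3 in its last 200 kb. Replicate 1 held 32, 32, 56, 30, 28, 46 and 39 peaks there and then 10, and replicate 2 held 18, 20, 32, 21, 16, 32 and 17 and then 1. The bins from 14500000 to 15000000 and from 16000000 to 16500000 thus held 75 of the 159 right members (47.2%).

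Set against the other full bins of IV, most domain bins lay lower than any of them. The 22 full bins outside the domains held between 50 and 176 combined peaks per Mb, with a median of 82. The 12 full domain bins held between 30 and 136, with a median of 35, and 8 of them, 3 in the left and 5 in the right domain, were below the lowest bin outside. In replicate 1 the bins outside started at 86 per Mb, and in replicate 2 at 58 per Mb. The same 8 domain bins were below these limits in both replicate lists. The 4 domain bins that overlapped with the range outside were the bin that opens the left domain, its densest bin and the 2 rich bins of the right domain.

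The change at the domain limits was uneven. The 500 kb just before the left domain were among the richest of IV, with 88 combined, 130 replicate 1 and 88 replicate 2 peaks. The first 500 kb inside held 39 combined peaks. At the other limit of the left domain, the last 500 kb inside held 23 peaks and the next 500 kb outside held 34. The right domain followed 500 kb with 35 combined peaks and opened with 16. Near the limits, the last peak before the left domain (4477333 to 4477917) had a combined score of 4.13, and the first one inside (4505836 to 4506000) had 2.97. The last one inside (6881275 to 6881604) had 2.08 and lay 119 kb before the limit, and the first one after it (7016428 to 7016707) had 6.03. At the right domain, the last peak before the start (13464451 to 13464690) had 6.03 and the first inside (13503094 to 13503265) had 5.49. Its last member (17148082 to 17148233) had 1.58 and was absent from replicate 2, and the next peak (17249792 to 17249981) had 8.77.

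**Figure D2:**
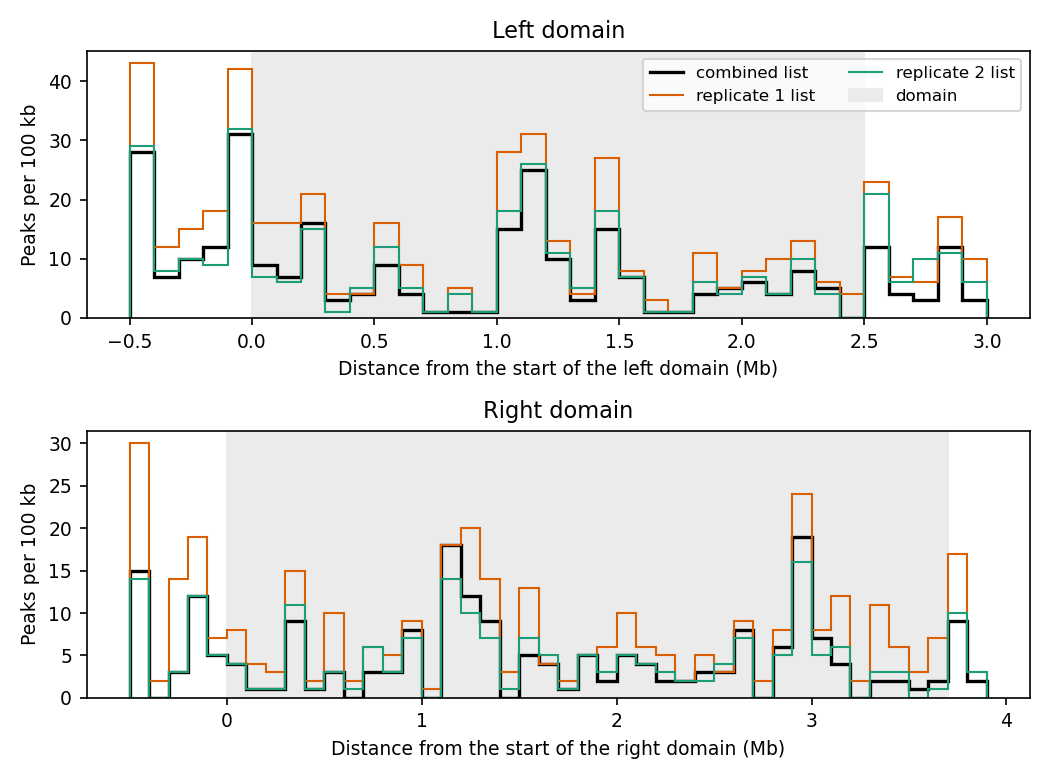
Steps give the number of peaks per 100 kb (vertical axis) against the distance from the start of each domain in Mb (horizontal axis), for the combined, replicate 1 and replicate 2 lists, with the domain shaded and up to 0.5 Mb shown outside it. The left domain has a rich block about 1.0 to 1.5 Mb from its start, the right domain has peaks of density near 1.2 and 2.9 Mb, and the 3 lists have their highest steps in the same places.

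Stretches without any peak were more frequent in the domains. Empty windows, long gaps and peaks far from any other all tend to increase as density falls. Whether they went beyond what the lower density gives was not tested. Of 124 windows of 50 kb tiled over the domains, 38 held no combined peak (30.6%, Wilson interval 23.2 to 39.2%), against 32 of 225 on the rest of IV (14.2%, 10.3 to 19.4%). The left domain had 16 such windows of 50 and the right 22 of 74. Replicate 1 left 17 domain windows empty (13.7%), against 11 outside (4.89%), and replicate 2 left 36 (29.0%), against 29 outside (12.9%). All 17 windows that were empty in replicate 1 were empty in every list, against 10 of 225 outside (4.44%, 2.43 to 7.99%). The other 21 domain windows without a combined peak each held a replicate 1 peak, and 5 of them held a replicate 2 peak. Peaks were counted by midpoint.

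Gaps between neighbouring combined peaks longer than 50 kb took up 52.6% of the left domain (12 gaps) and 68.7% of the right domain (27 gaps). The same share was 30.1% before the left domain and 40.7% between the domains. In replicate 1 it was 33.4% on the left and 54.6% on the right, against 19.8% over the rest of IV, and in replicate 2 it was 47.4% and 72.1%, against 34.5%. The longest gap of the right domain, 200.7 kb from 16181427 to 16382120, held the midpoints of 2 replicate 1 peaks, with a highest score of 7.65, and of no replicate 2 peak. The next, 182 kb from 16663859 to 16845422, held 3 replicate 1 peaks and no replicate 2 peak, and ended at the highest-scoring member of that domain. The third, 153 kb from 13542029 to 13695430, held 1 replicate 1 peak and no replicate 2 peak. In the left domain the longest gap, 176 kb from 6118045 to 6294105, held 1 replicate 1 peak with a score of 3.27 and no replicate 2 peak. The gap from 5209726 to 5368869 (159 kb) held 2 peaks of each replicate. That from 4926967 to 5077931 (151 kb) held 3 replicate 1 peaks, the best with a score of 12.2, and no replicate 2 peak. The longest gap of the combined list outside the domains was 184 kb. In replicate 2 the longest gap of IV, 208 kb, lay outside the domains.

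Where peaks did occur, they were often near each other, as elsewhere on IV. The median distance between neighbouring midpoints was 1974 bp in the left domain (quartiles 729 and 11302 bp) and 3208 bp in the right (748 and 33346 bp). It was 1550 bp before the left domain and 2146 bp between the domains. The left domain thus lay between these stretches, and the right domain above both. In replicate 1 the medians were 1691 bp for the left and 2420 bp for the right domain, against 1247 bp before the left domain and 1564 bp between the domains. In replicate 2 they were 1861 and 3987 bp, against 1388 and 1675 bp, so that in the replicate lists both domains had the longer medians. The lower quartiles in the combined list differed little, 614 bp for the rest of IV against 730 bp over both domains, and the upper quartiles were 11427 and 17984 bp.

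**Figure D3:**
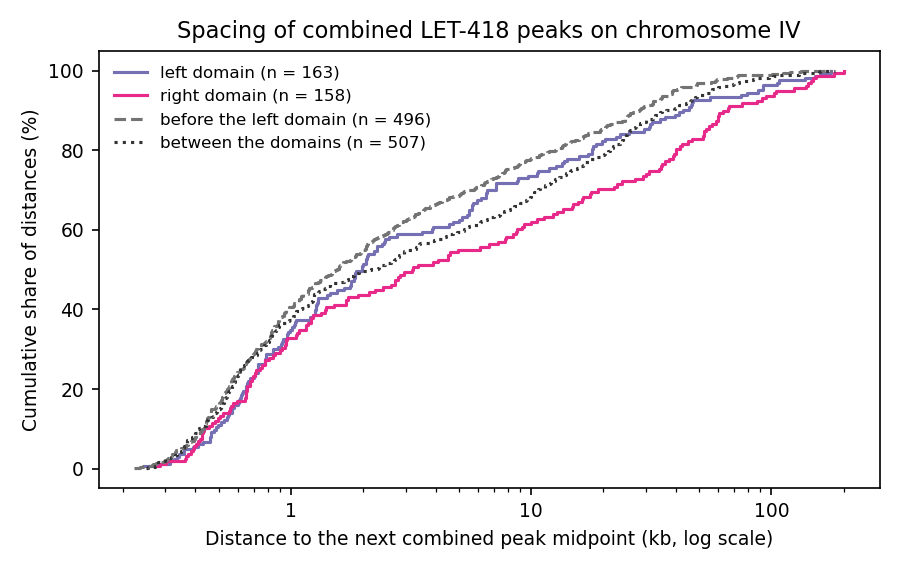
Lines give the cumulative share of distances (vertical axis, %) between neighbouring combined peak midpoints (horizontal axis, kb, log scale) in the left domain, the right domain, the stretch before the left domain and the stretch between them. The lines run together below about 1 kb, and the right domain then falls below the others, with a median of 3208 bp.

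When members less than 1 kb apart were joined, 185 of 323 (57.3%, 51.8 to 62.6%) fell into 59 clusters and 138 stood alone. On the rest of IV, 657 of 1018 (64.5%, 61.5 to 67.4%) were in clusters, an interval that overlaps the first. In the replicate lists the intervals did not overlap, but they cover counting error only and neighbouring peaks are not independent. Such a share also tends to fall with density at a fixed join distance, and clustering beyond the lower density was not tested. Replicate 1 gave 59.1% (54.9 to 63.2%) in the domains and 69.1% (67.0 to 71.2%) outside, and replicate 2 gave 57.7% (52.4 to 62.9%) and 68.3% (65.5 to 70.9%). The combined share was 59.8% in the left domain (34 clusters) and 54.7% in the right (25 clusters). It was 64.2% and 54.2% in replicate 1, and 62.6% and 52.2% in replicate 2. Clusters of 5 or more peaks numbered 3 in the left and 5 in the right domain in the combined list, with 20 and 40 members. The order was the other way in both replicate lists, with 9 left and 7 right clusters (62 and 49 peaks) in replicate 1 and 5 and 3 (35 and 22 peaks) in replicate 2. Lone sites far from any other were more frequent on the right, where 34 of 159 members (21.4%) had no neighbour within 10 kb, against 15 of 164 (9.15%) on the left, 12.6% between the domains and 7.24% before the left domain. The shares on the right and left were 13.6% and 9.81% in replicate 1, and 15.9% and 9.50% in replicate 2. Between the domains and before the left domain they were 6.37% and 2.78% in replicate 1, and 9.81% and 8.68% in replicate 2. The left domain thus lay above the middle stretch in replicate 1, but below it in the combined list and slightly below it in replicate 2.

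The cluster with the most members of the combined list lay in the right domain, from 16489951 to 16499590. It held 13 combined peaks in 9640 bp, all found in both replicates, with scores from 1.53 to 9.03, over 10 replicate 1 and 10 replicate 2 peaks. Elsewhere on IV the most combined peaks in 1 cluster were 11. This did not hold in the replicate lists, where the cluster with the most peaks lay before the left domain, with 14 in replicate 1 and 13 in replicate 2, and no domain cluster held more than 11. The next in the right domain, from 14609518 to 14615079, held 8 peaks that covered 85.1% of its 5562 bp. A neighbour, from 14617600 to 14622721, held 7 peaks that covered 69.1%. These clusters are 2520 bp apart. Also with 7 peaks, the cluster from 14476386 to 14480241 was made of narrow peaks, at most 236 bp wide, and was 33.7% covered. The fifth, from 16167945 to 16171057, held 5 peaks, 3 of them found in both replicates. These 5 clusters held 40 of the 159 right members in 27.3 kb, or 0.738% of the domain.

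In the left domain the cluster with the most members ran from 5654707 to 5660474 and held 8 combined peaks, 9 replicate 1 peaks and 7 replicate 2 peaks. The next, from 5603584 to 5608004, held 7 combined peaks, all found in both replicates. Those from 5664548 to 5667727 and from 5600208 to 5602532 held 4 each. All 4 lie in the densest bin of the domain, within 67.5 kb. The remaining one, from 4747431 to 4750142, held 5 combined peaks with scores from 3.06 to 9.03. The 5 left clusters held 28 of 164 members (17.1%) in 18.4 kb. The right clusters held 25.2% of their domain, but in the replicate lists the 5 clusters with the most peaks held like shares on both sides, 15.1% left and 14.3% right in replicate 1 and 19.6% and 19.1% in replicate 2.

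Member widths were close to those of other peaks of IV. The median width was 231 bp (quartiles 177 and 338 bp) in the domains and 235 bp (175 and 330 bp) on the rest of IV. In the left domain it was 224 bp and in the right 236 bp. The replicate lists gave 240.5 bp in the domains against 221 bp outside for replicate 1, and 257.5 against 247 bp for replicate 2. Members wider than 1 kb numbered 4 (1.24%, 0.483 to 3.14%), 1 in the left and 3 in the right domain, against 21 on the rest of IV (2.06%, 1.35 to 3.13%). Replicate 1 had 10 such peaks in the domains (1.86%) against 2.49% outside, and replicate 2 had 10 (2.98%) against 3.41%. The widest member, from 14032462 to 14034604, was 2143 bp wide, with a combined score of 7.64, 30.8 in replicate 1 and 27.5 in replicate 2. The other wide members of the right domain ran from 14620188 to 14622101 (1914 bp) and from 14793828 to 14794946 (1119 bp). On the left the widest were from 5656535 to 5657779 (1245 bp), from 4926110 to 4926966 (857 bp) and from 5593622 to 5594447 (826 bp). The second of these scored 20.3 in replicate 1 and 4.56 in replicate 2, while the third scored 13.3 and 14.4.

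Some replicate peaks were broad where the combined list held several. In replicate 2, 1 peak of 3405 bp from 14611233 to 14614637 spanned 4 members. In replicate 1, 1 peak of 3378 bp from 14620175 to 14623552 spanned 2. In all, 17 replicate 1 peaks lay over more than 1 member each, and together over 36 of the 323 members, and 17 replicate 2 peaks likewise over 36. On the rest of IV, 89 such replicate 1 peaks lay over 187 of the 1018 combined peaks, and 66 replicate 2 peaks over 143. This was therefore not more frequent in the domains. Counts of peaks in such places thus differed between the lists.

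Replicate presence was close to that of the whole list. In the domains 293 of 323 members (90.7%, 87.1 to 93.4%) shared at least 1 bp with a peak of both replicates, the share over all 9187 combined peaks being 90.4%. The rest of IV gave 920 of 1018, also 90.4%. A further 28 members (8.67%) were found in replicate 1 alone and 2 (0.619%) in replicate 2 alone. Lacking a partner in both were 0 of 323 members (upper Wilson limit 1.18%) and 0 of 1018 peaks on the rest of IV. The combined list comes from these same replicates, in a way that is not given, so the 0 says nothing particular about the domains. The share found in both was 92.1% (86.9 to 95.3%) on the left and 89.3% (83.5 to 93.2%) on the right, intervals that overlap. Before the left domain it was 86.3% (83.0 to 89.1%) and between the domains 94.1% (91.7 to 95.8%).

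Members with 1 replicate only had lower scores and were narrower, and the same held on the rest of IV. For those found in replicate 1 alone the median combined score was 2.92, against 4.15 for those found in both. Their widths had medians of 164 and 243 bp. On the rest of IV the same medians were 2.90 against 4.13 for the score and 163 against 247 bp for the width. The members of replicate 2 alone ran from 5818050 to 5818244 (combined score 1.80) and from 6756225 to 6756382 (1.58), both in the left domain. Each stood at the end of a row of peaks. A combined peak lay 0.216 kb before the former and none followed for 107 kb, and a combined peak lay 0.158 kb after the latter and none preceded it for 137 kb.

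From the side of the replicates, 306 of 538 replicate 1 peaks in the domains (56.9%, 52.7 to 61.0%) overlapped a replicate 2 peak, and 307 of 336 replicate 2 peaks (91.4%, 87.9 to 93.9%) overlapped a replicate 1 peak. The corresponding shares on the rest of IV were 54.0% and 90.1%. In replicate 1 the share was 60.4% on the left and 53.5% on the right, against 47.8% before the left domain and 60.7% between the domains. Replicate 1 held 1.48 times as many peaks as replicate 2 in the left domain and 1.74 times as many in the right. The ratio was 1.85 before the left domain, 1.43 between the domains, 1.41 after the right domain (24 and 17 peaks) and 1.64 over all chromosomes. The left domain thus lay nearer to the stretch between the domains. The right domain lay nearer to the stretch before the left domain than to its own neighbours on either side.

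The peak score was not used to choose the members, and its scale is not stated, so it only orders peaks within a list. The median combined score of the members was 3.93 (quartiles 2.88 and 5.35), and on the rest of IV it was 3.93 as well (2.77 and 5.35). It was 4.005 on the left and 3.93 on the right, below the 4.26 of the stretch before the left domain and above the 3.63 of the stretch between the domains. Of the members, 172 (53.3%, 47.8 to 58.6%) reached the median of the whole combined list, against 516 outside (50.7%, 47.6 to 53.8%). In the replicate lists the shares were 52.2% against 47.1% and 48.5% against 48.6%. The domains therefore held fewer sites per Mb, with scores in the range of those outside.

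Among members found in both replicates, the best overlapping replicate 1 score had a median of 10.1 on the left and 12.2 on the right, and the best replicate 2 score a median of 5.95 and 5.58. Ranked within all peaks of each list, the median left member stood at percentile 72.4 in replicate 1 and 59.5 in replicate 2. The median right member stood at 80.5 and 55.4. The domains thus changed order between the replicates. Across members, Spearman's rho of the replicate scores was 0.55 on the left (n = 151) and 0.70 on the right (n = 142), against 0.64 on the rest of IV (n = 920). These describe peaks that share libraries and neighbours, and every one had passed the threshold of both lists.

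**Figure D4:**
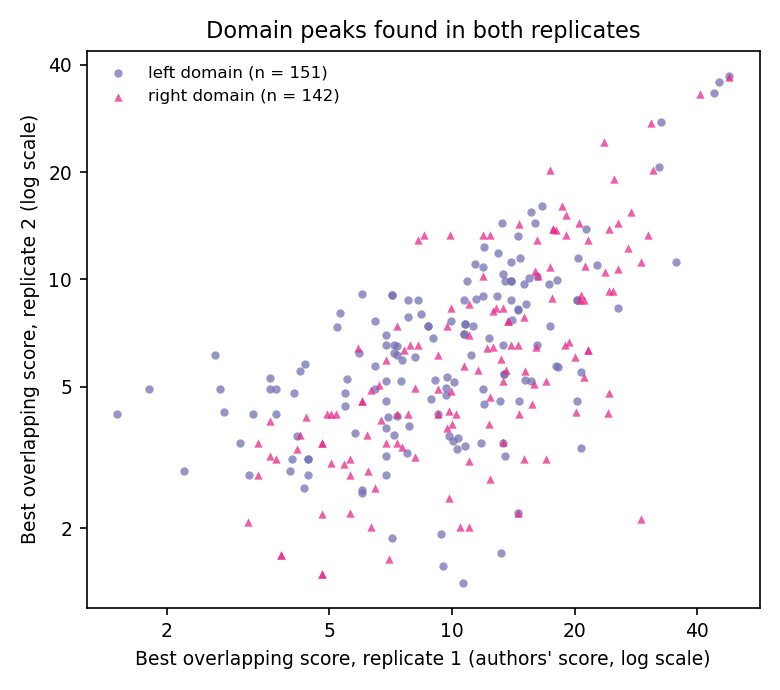
Points are the members found in both replicates, by the best overlapping authors' score in replicate 1 (horizontal axis) and replicate 2 (vertical axis), both on log scales, with 151 left members as circles and 142 right members as triangles. The clouds of both domains overlap, and each domain has a member with a score of 47.9 in replicate 1.

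The highest combined score, 9.03, is a ceiling shared by many peaks. It was reached by 11 members (3.41%, 1.91 to 5.99%), 5 on the left and 6 on the right, and by 33 peaks on the rest of IV (3.24%, 2.32 to 4.52%). Of those 33, 29 lay before the left domain (5.84% of its peaks, 4.09 to 8.25%) and 4 between the domains (0.787%, 0.307 to 2.01%). The share was 3.05% (1.31 to 6.94%) in the left domain and 3.77% (1.74 to 7.99%) in the right, and their intervals overlap that of the middle stretch. Of the 11, 7 had no other combined peak within 1 kb, against 11 of the 33 outside. Those 11 outside were 9 of 29 before the left domain and 2 of 4 between the domains. Among all peaks, 138 of 323 members and 361 of 1018 outside stood alone, and the counts at the ceiling are small.

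On the left, the peak from 4727879 to 4728152 had the highest score of either replicate list, 47.9 in replicate 1 and 37.2 in replicate 2. Its neighbours from 4720558 to 4720903 (45.3 and 35.8) and from 4725434 to 4725735 (44.0 and 33.3) and the peak from 4749947 to 4750142 (32.6 and 27.6) lay with it in 29.6 kb. Only the member from 6117789 to 6118044 (35.5 and 11.2) lay elsewhere, at the start of the longest gap of that domain. On the right such members were spread over 1.74 Mb. The peak from 16845423 to 16845723 scored 47.9 and 36.9 and stood 46.9 kb from its nearest neighbour, the largest such distance among the 11. Those from 15530598 to 15530815 (40.7 and 33.1), from 15984235 to 15984479 (31.2 and 20.3) and from 15107160 to 15107535 (24.96 and 19.1) followed. The peak from 16489951 to 16490903 (27.6 and 15.5) opens the cluster of 13. The median combined score was 3.93 for the 138 members that stood alone and 3.98 for the 185 in clusters.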

How the data were processed

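LET-418 ChIP-seq peak lists of 2 replicates and a combined list were used. The submitters' processing notes name the aligner BWA and the build ce10. Per the file headers, positions are on WormBase WS220 and peaks come from MACS. Not given in the sources used here are versions, thresholds, the use of the input and the way replicates were combined. The deposited peak score comes from the authors and its scale is unknown, as is the depth.

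Members were taken by midpoint. A shared site needed an overlap of 1 bp. A reciprocal overlap of 50% or midpoints within 500 bp were alternatives. Densities used the length of each stretch, with IV ending at its last peak end, 17470876. Spacing and clusters (gaps under 1 kb) were computed within each stretch. Windows of 50 kb and bins of 500 kb started at the stretch limits. The share intervals are Wilson intervals at 95%. The measures were tested on simulated lists first. The software was Python 3.11.15 with matplotlib 3.10.9, SciPy 1.17.1, pandas 2.3.3 and NumPy 2.4.6.

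The members, measures and alternatives were chosen with earlier results of these data known. Named items are, per domain, the 5 clusters with most peaks, the 3 widest peaks, the 3 longest gaps, the 5 best-ranked peaks at the highest combined score, peaks of replicate 2 alone, and the peaks next to each limit. RefSeq positions (WBcel235) and peak sequences were not used, for want of the same build.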

Additional observations from a re-analysis of the deposited data

How the results depend on the processing

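As no test was run, each alternative was judged against a limit. For densities, width, spacing, the share in clusters and empty windows, this was the standard deviation of the 2 replicate lists. For the share found in both replicates it was the counting interval, and for the score the quartiles. Of 41 alternatives, 18 stayed within these limits and 23 moved beyond them. These counts include the replicate lists taken alone, whose own values set the standard deviation, so for them the limit is no independent check. For the ratio of both domains to the rest of IV, the standard deviation of the 2 replicate lists was only 0.00486, so small changes counted as moved. The ratio of both domains to the rest of IV was below 1 in all 8 alternatives run. It was 0.541 to 0.548 when the list of 1 replicate replaced the combined list, 0.589 in covered bases and 0.606 for the better-scoring peaks (combined score of at least the list median). It was 0.667 against the stretch between the domains and 0.543 against the 500 kb outside each limit. Only 271 kb were left after the right domain, and the flank before the left domain was the richest, with 88 combined peaks. The ratio of left to right was above 1 in all 8 alternatives. It was 1.35 in covered bases, 1.32 with the limits moved in by 250 kb, 1.28 without the densest 500 kb of each domain and 1.12 without that of the left domain alone. The comparisons with the stretch between the domains, with up to 500 kb outside and without the densest bins were chosen after seeing the data. For these better-scoring peaks, the median width of members was 260.5 bp, the median spacing 5955 bp, the share in clusters 47.1%, the share of empty windows 46.0% and the share found in both replicates 97.7%. With the list of 1 replicate, the width was 240.5 to 257.5 bp, the share in clusters 57.7 to 59.1% and the share of empty windows 13.7 to 29.0%. The share in clusters was 59.9% with the limits moved in, 47.4% with a join distance of 500 bp and 67.2% with 2 kb. Windows of 100 kb left 9.68% empty, and a reciprocal overlap of 50% left 70.9% found in both replicates. The comparison with genes, promoters and motifs was not run. The causes of these shifts were not tested, beyond fewer peaks or stricter limits by construction. The values pair by replicate across stretches, but 2 pairs allow no two-sided exact p below 0.5. Unknown depth limits any reading of the number of peaks.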

Other observations

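Sites seen in a replicate did not always reach the combined list. In the domains, 30 of 538 replicate 1 peaks (5.58%, 3.93 to 7.85%) overlapped a replicate 2 peak but no combined peak, with a median score of 4.81. On the rest of IV this held for 140 of 1808 (7.74%, 6.60 to 9.07%). Of the replicate 2 peaks, 28 of 336 in the domains (8.33%, 5.83 to 11.8%) overlapped a replicate 1 peak but no combined peak, against 147 of 1115 outside (13.2%, 11.3 to 15.3%). The best of these in replicate 2 lay in the right domain, from 15472469 to 15472637, with a score of 12.8 in each replicate, higher than 92.6% of all replicate 2 peaks. In replicate 1, the best domain peak without a combined partner ran from 14740997 to 14741196, with a score of 17.4, higher than 91.2% of that list, and it had no partner in replicate 2. Why these sites are missing from the combined list was not tested.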
